A study of Caenorhabditis elegans with 2 samples.

Results

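The genes described here are the 43 protein-coding genes of Caenorhabditis elegans whose symbols place them in 4 hydrolase families: 8 cpr genes, 17 asp genes, 10 lys genes and 8 lipl genes. Membership was decided by the symbol, over 19973 protein-coding genes. The cpr genes encode cysteine proteases of the cathepsin B type and the asp genes encode aspartyl proteases, both of which digest proteins in the gut lumen and in lysosomes. The lys genes encode lysozymes, which break down bacterial cell walls and are also counted among the antimicrobial effectors of the worm. The lipl genes encode lipases related to lysosomal acid lipase, several of which are known for their induction by fasting. Many genes of these families are switched on in the intestine by the GATA factors ELT-2 and ELT-7, which bind sites with the core GATAA. LIN-35 is the worm's retinoblastoma-like pocket protein and acts in DREAM, a complex that keeps cell cycle genes off through E2F-type and cell cycle homology region (CHR) elements.

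LIN-35 binding was measured by chromatin immunoprecipitation with sequencing in whole YL398 larvae at the L1 stage, males and females pooled, as 2 biological replicates that form the study's 1 group. The strain carries, on an unc119(ed3)III background, a transgene in which the promoter of the gut esterase gene ges-1 drives a fusion of LIN-35 with GFP and FLAG, with the lin-35 3'UTR and unc-119(+) as the marker. The fusion is therefore placed under a gut promoter, while the chromatin came from whole animals. One label names LIN-35 as the antibody target and another the GFP fusion, and whether endogenous LIN-35 was also precipitated was not tested. No other genotype, stage or feeding state was compared, and the peak lists measure binding, not expression. Read depth is unknown.

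4 deposited peak lists in the ce11 build were used. The 2 replicate lists held 30000 and 26341 peaks, the pooled list 30000, and the reproducible list 6712, which are the pooled peaks with the highest signal. Signal is the authors' own value per peak. It ran from 45.9 to 4903 in the reproducible list, from 6.21 to 4595 for replicate 1 and from 2.00 to 386 for replicate 2, so that sizes cannot be compared between lists and ranks are given instead. A gene was counted as having a promoter peak where a summit fell from 500 bp upstream to 200 bp downstream of one of its annotated starts.

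A reproducible promoter peak was present at 13 of the 43 genes, or 30.2% (exact 95% interval 17.2% to 46.1%), beside 19.8% of all protein-coding genes. The interval includes the value for all genes, and it covers counting error over genes only. The 13 genes were cpr-1, cpr-4, cpr-6, cpr-9, asp-1, asp-2, asp-3, asp-5, asp-6, asp-12, lys-8, lipl-2 and lipl-5. By family, 4 of 8 cpr genes (50%, 15.7% to 84.3%), 6 of 17 asp genes (35.3%, 14.2% to 61.7%), 1 of 10 lys genes (10%, 0.253% to 44.5%) and 2 of 8 lipl genes (25%, 3.19% to 65.1%) had one. These intervals overlap, and the difference between families was not tested. In the longer, relaxed lists a promoter summit was found at 26 of the 43 genes in the pooled list, beside 38.3% of all genes, at 25 in the replicate 1 list, beside 38.2%, and at 24 in the replicate 2 list, beside 35.6%. The shares among the 43 were 60.5%, 58.1% and 55.8%. Of the 26 with a pooled summit, 13 (50%) reached the reproducible list, and over all genes this share was 51.8%.

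**Figure D1:**
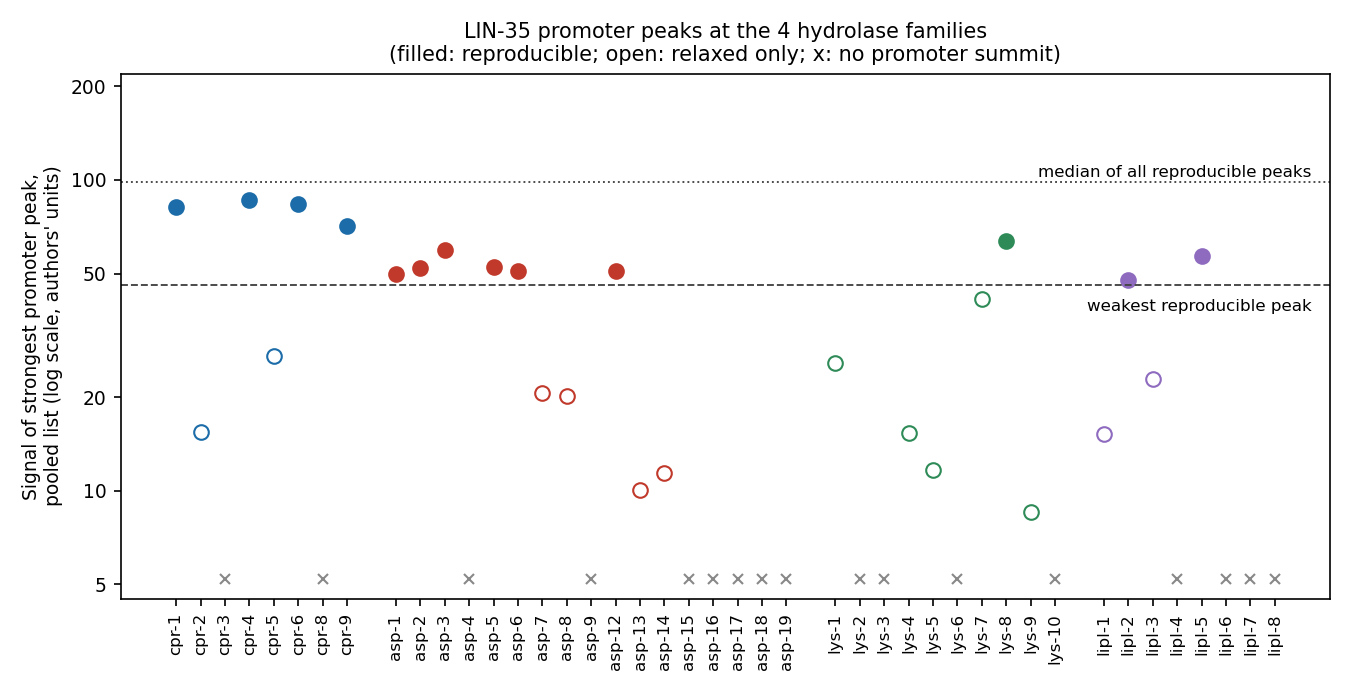
Signal (log scale, the authors' units) of the strongest pooled-list promoter peak at each of the 43 genes, by family; filled circles are reproducible peaks, open circles are in the pooled relaxed list only, and crosses mark genes with no promoter summit in that list. The filled circles lie between 47.5 and 86.4, above the weakest reproducible peak (45.9) and below the list's median (98.5).

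The sequences under the summits are shown first, because a GATAA word lay within 75 bp of 11 of the 12 distinct summits at these genes. 8 of the 11 are given as 30-base stretches of the RefSeq genome (WBcel235, the assembly that ce11 names), read 5′ to 3′ on the strand of the gene. Capitals mark each GATAA, or its complement TTATC where the word lies on the other strand. All 8 genes are on the plus strand. The stretches lie at chrV:11975489-11975518 for cpr-1, chrV:6614590-6614619 for cpr-4, chrX:6607146-6607175 for cpr-6, chrV:12003026-12003055 for cpr-9, chrV:8272193-8272222 for asp-5, chrV:8268981-8269010 for asp-12, chrII:5585965-5585994 for lys-8 and chrV:385673-385702 for lipl-5.
cpr-1: aatcggaagattGATAAgacattgtaaaat
cpr-4: ccggacgccaatGATAAgaGATAAcgagca
cpr-6: agggccaaatttGATAAcgaaaacatgttc
cpr-9: aatgcctaattcTTATCagcaatattcgag
asp-5: ttgagtataaatGATAAgaaatcattgtca
asp-12: attgaaagtgtaGATAAacgagtgaaataa
lys-8: gtgtgatatcatGATAAtgttttccgaaat
lipl-5: tGATAAgctactGATAAcgaaattcaaaca

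The GATAA nearest the summit was centred 1 bp from it at cpr-4, 4 bp at lipl-5, 9 bp at lys-8 and 11 bp at cpr-6. It was 15 bp away at cpr-9, 17 bp at asp-5, 18 bp at asp-2 and 32 bp at asp-3. The longest distances were 37 bp at cpr-1, 52 bp at lipl-2 and 56 bp at the summit between asp-6 and asp-12. Within 75 bp of the summit, and so beyond the printed bases, cpr-4, cpr-6, cpr-9, asp-2 and asp-5 each had 3 matches, and lys-8 had 4.

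GATAA, searched on both strands, was found within 75 bp of 91.7% of the 12 summits at these genes and of 34.7% of all 3394 reproducible promoter summits. Among all promoter summits the share was 25% for those in the 3356 strongest peaks and 48.7% for the 1397 outside them, where all 12 lie. With 50 bp on either side the word was found at 9 of 12 summits, beside 24.5% of all, and with 150 bp at 12 of 12, beside 58.7%. Replicate 1 summits at these genes held it in 11 of 12 cases and replicate 2 summits in 10 of 11. The share over all promoter summits was not counted for single replicates, so these counts have no value beside them. These flanks and single-replicate counts were added after the data were seen, and the word itself was chosen with earlier results of these data known. The one summit without it within 75 bp was that of asp-1, which lies in a coding exon.

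Words linked to DREAM, and an E-box, were counted at the same summits; differences between the sets of summits were not tested for any of the words. The E2F-type words TTCCCGC and TTCGCGC and TTGCCGC and TTGGCGC, searched on both strands, were at 0 of the 12, beside 15.1% of all promoter summits and 7.02% of those outside the 3356 strongest peaks. A CHR-type word, TTTGAA or TTCGAA, was at 2 of the 12 (cpr-9 and lipl-5), beside 39.0% and 29.8%. The E-box CACGTG, the core of sites bound by MYC-like and HLH-30-like factors, was at 3 of the 12 (cpr-1, lipl-2 and lipl-5), beside 7.31% and 8.80%. Its longer form TCACGTGA, which contains CACGTG, was at none of the 12 and at 0.678% of all promoter summits. A match is a run of letters and not a shown binding site, and the lack of a match says only that these letters are not in the window searched.

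**Figure D2:**
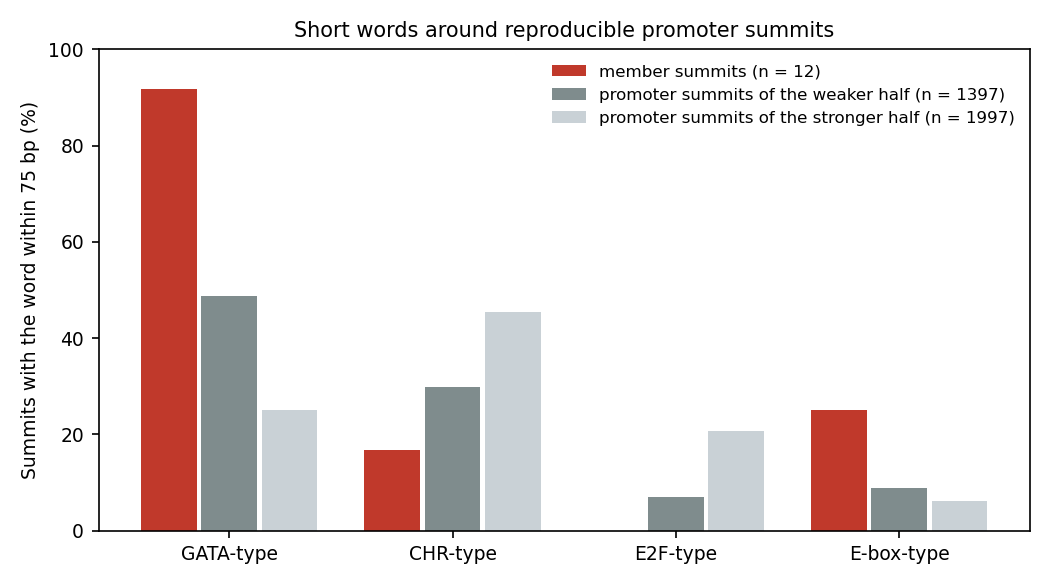
Percent of reproducible promoter summits with a word of each type within 75 bp, for the 12 summits at the 4 families (red), the 1397 promoter summits outside the 3356 strongest peaks (dark grey) and the 1997 within them (light grey). The GATA-type share falls from 91.7% to 48.7% to 25% across the 3 sets, and the E2F-type share runs 0%, 7.02% and 20.7%.

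Over whole promoter windows the words were counted again, for genes with and without a peak. GATAA occurred in the promoter windows of 12 of the 13 genes with a reproducible peak, of 29 of the 30 without one, and of 84.5% of all protein-coding genes. E2F-type words occurred in 0 of the 13, in 6 of the 30, and in 19.5% of all. The 0 depends on the window: from 1000 bp upstream, an E2F-type word occurred in 3 of the 13, in 8 of the 30 and in 30.3% of all. CACGTG occurred in 4 of the 13, in 4 of the 30 and in 12% of all, and a CHR-type word in 83.7% of the 43 and 92.4% of all.

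Among the cysteine proteases, cpr-4 had the highest signal of the 43 genes. Its peak, at chrV:6614431-6614774 with the summit 71 bp upstream of the start, had a signal of 86.4 and ranked 3804 of 6712. The overlapping peak had a signal of 63.8 in replicate 1 and of 23.0 in replicate 2. The peak of cpr-6 (chrX:6606977-6607320, summit 58 bp upstream) had a signal of 83.9 and rank 3924, with 66.4 in replicate 1 and 17.7 in replicate 2. At cpr-1 (chrV:11975294-11975637, 85 bp upstream) the signal was 82.1 and the rank 4014, with 61.6 and 19.3 in the replicates. The cpr-9 peak (chrV:12002883-12003226) had its summit 2 bp inside the transcript, in untranslated exon sequence, with a signal of 71.2, rank 4578, and 56.2 and 17.1 in the replicates. Both replicates therefore placed a peak at each of the 4 genes, and these were the 4 highest signals among all 43. The cpr-6 gene held a further reproducible summit in an intron, 589 bp downstream of the start, with a signal of 73.1. The cpr-1 summit also fell in the promoter window of the non-coding RNA gene C52E4.17.

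The other cpr genes lacked a reproducible promoter peak. At cpr-5 the pooled peak had a signal of 27.2 with its summit 85 bp downstream of the start, and it was matched by a replicate 1 summit (26.9) but by none in replicate 2. At cpr-2 a pooled summit 162 bp upstream had a signal of 15.5, again with a replicate 1 summit (14.5) and none from replicate 2. At cpr-3 the reverse held: replicate 2 alone placed a summit in the window, 80 bp upstream, with a signal of 11.4 and rank 3263 of 26341. No list had a promoter summit at cpr-8.

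The aspartyl protease peaks were weaker and closer to one another in signal, from 49.9 to 59.7. The median over the 6 asp genes, with the peak shared by asp-6 and asp-12 counted for each, was 51.5, beside 83.0 over the 4 cpr peaks. The highest was at asp-3, which encodes a cathepsin D-like lysosomal protease. Its peak (chrX:6790978-6791321) had a signal of 59.7 and rank 5338, with the summit 86 bp downstream of the start in untranslated exon sequence and 53.5 and 7.27 in the replicates. The asp-5 peak (chrV:8272052-8272395, 161 bp upstream) had a signal of 52.6 and rank 5991, with 38.5 in replicate 1 and 11.5 in replicate 2. At asp-2 (chrV:9202769-9203112, 136 bp upstream) the signal was 52.0 and the rank 6050, with 36.8 and 5.15. The asp-2 peak ranked 7237 in replicate 1 and 8286 in replicate 2, which is outside the 6712 strongest of either. The intestinal protease gene asp-1 had the lowest signal of the family, 49.9 at rank 6260 (chrV:19050426-19050769), with the summit 154 bp into the transcript in a coding exon and 39.9 and 7.60 in the replicates.

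The neighbours asp-6 and asp-12 shared 1 summit between their divergent starts. The peak (chrV:8268879-8269222) had a signal of 51.0 and rank 6152, and 42.0 and 11.8 in the replicates. Its summit lay 114 bp upstream of asp-6 and 159 bp upstream of asp-12, so the reproducible list gives 1 summit for these 2 divergent starts. Of the 12 distinct summits at the 4 families, this was the only one in the windows of more than 1 protein-coding gene (8.33%), beside 21.2% of all 3394 promoter summits. In replicate 1 a further, weaker summit (signal 9.95) lay 33 bp downstream of the asp-12 start. The replicate 2 summit lay 92 bp upstream of asp-12 and 181 bp upstream of asp-6.

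Of the remaining 11 asp genes, asp-7 (20.6 in the pooled list, 17.4 and 3.03 in the replicates) and asp-8 (20.1, with 15.5 and 3.42) had a weak summit in each of the 3 relaxed lists, 43 and 131 bp upstream. Weaker pooled summits were at asp-13 (10.1, with 7.23 and 2.63 in the replicates) and at asp-14 (11.4, with 7.45 in replicate 1 and none in replicate 2). At asp-13 the summit lay 114 bp upstream in the pooled list and 120 bp in replicate 1, but 345 bp upstream in replicate 2. The second cathepsin D-like gene, asp-4, had a summit in replicate 1 only (10.3) and asp-16 in replicate 2 only (2.69). The genes asp-9, asp-15, asp-17, asp-18 and asp-19 had none in any list.

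Only lys-8 among the lysozymes had a reproducible promoter peak. The peak (chrII:5585816-5586159) had its summit 190 bp upstream, the farthest upstream of the 13 genes, with a signal of 63.6, rank 5067, and 50.2 and 11.5 in the replicates. The summit also fell in the promoter window of the non-coding gene C17G10.12. The nearest to the threshold was lys-7, a lysozyme gene known for its part in defence against bacteria: its pooled signal of 41.5, 189 bp upstream, ranked 7272, below the weakest reproducible peak. Replicate 2 placed a summit at the same distance with a signal of 8.63 and rank 4489, and replicate 1 had none in the window. At lys-1 all 3 relaxed lists had a summit (25.8 pooled, 20.9 and 8.19 in the replicates), as at lys-4 (15.3, with 13.5 and 2.61). Pooled signals were 11.7 at lys-5 and 8.53 at lys-9. The lys-2 gene had a replicate 2 summit only (2.33), and lys-3, lys-6 and lys-10 had none. The lysozymes thus had pooled summits at 6 of 10 genes, beside 38.3% of all genes. The other families had them at 6 of 8 cpr genes, 10 of 17 asp genes and 4 of 8 lipl genes. Of the lys genes with a pooled summit, 16.7% reached the reproducible list, beside 66.7% for cpr, 60% for asp, 50% for lipl and 51.8% over all genes. These differences were not tested.

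Among the lipase genes, lipl-5 had a summit 63 bp upstream (chrV:385511-385854) with a signal of 56.97 and rank 5544, and 49.1 and 10.7 in the replicates. The lipl-2 peak (chrV:9791288-9791631, 107 bp upstream) had the lowest signal of the 13 genes, 47.5 at rank 6535. It overlapped a replicate 1 peak of signal 47.8 but no replicate 2 peak, the 1 such case among the 12 distinct peaks. Over all promoter summits, 92.6% were overlapped by a replicate 2 peak and 99.8% by a replicate 1 peak. Another lipase gene, lipl-3, had summits in the pooled list (22.8) and in both replicates (14.3 and 6.74) about the same place, 60 bp upstream in the pooled list. The lipl-1 summit had a pooled signal of 15.3, with 10.8 and 3.77 in the replicates. The lipl-4 gene had a replicate 2 promoter summit only (2.34), and lipl-6, lipl-7 and lipl-8 had none. The lipl-4 gene, which encodes a lysosomal acid lipase studied for its effect on lifespan, held a reproducible summit of signal 91.9 outside its window, in untranslated exon sequence 1009 bp downstream of the start, where it also falls in the promoter window of twk-10.

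None of the 13 genes had its promoter peak among the 3356 strongest peaks of the reproducible list, although 64.1% of all 3959 genes with a reproducible promoter peak did. The median signal of the 13 was 56.97 (47.5 to 86.4), and over all such genes it was 141 (interquartile range 77.4 to 329). All of the protease, lysozyme and lipase peaks thus lay in the weaker part of the list. Every peak at the 13 genes was 344 bp wide, which is also the median width over the whole reproducible list.

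The replicates ranked these peaks differently. Ranks were compared among the 6172 reproducible peaks that overlap a peak in each replicate list. All 11 distinct peaks at these genes with both values ranked higher in replicate 2 than in replicate 1, beside 43.4% of all promoter summits and 57.1% of the promoter summits outside the 3356 strongest peaks. At other gut and lysosomal genes the order of ranks was mixed, and the difference between lists was not tested. Replicate 2 ranked the peak higher at 6 of the 10 other effector genes described further on (60%) and at 7 of the 13 regulator genes (53.8%). These shares lay on either side of the 57.1% found outside the 3356 strongest peaks, and above the 43.4% of all promoter summits. Among the genes ranked higher by replicate 2, spp-1 moved from 5551 to 1844 and elt-7 from 6160 to 1886. At the remaining genes of both lists replicate 1 ranked the peak higher, as at cpl-1 (4654 to 5341) and daf-16 (4276 to 5837). All of these genes were named after their values were seen. The median rank over the 11 peaks was 5183 (4195 to 6108) in replicate 1 and 3057 (1284 to 5261) in replicate 2. For the promoter summits outside the 3356 strongest peaks the medians were 4606 and 4421. That set was not matched to the 11 in rank: its lower quartile by replicate 1 was 3951, beside 4612 for the 11. Summits of equal replicate 1 rank were not compared. Among the cysteine proteases, cpr-4 moved from 4333 to 1284, cpr-1 from 4452 to 1628, cpr-9 from 4772 to 1949 and cpr-6 from 4195 to 1849. The asp-5 peak moved from 6043 to 3058 and the asp-6 and asp-12 peak from 5855 to 2994. The lys-8 and lipl-5 peaks moved from 5183 to 3057 and from 5282 to 3306. The other asp peaks shifted less, with asp-1 going from 5990 to 4353, asp-2 from 6108 to 5261 and asp-3 from 4962 to 4467. With 1 library per replicate, a difference between larval cultures and one between libraries or antibody pulls cannot be told apart.

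**Figure D3:**
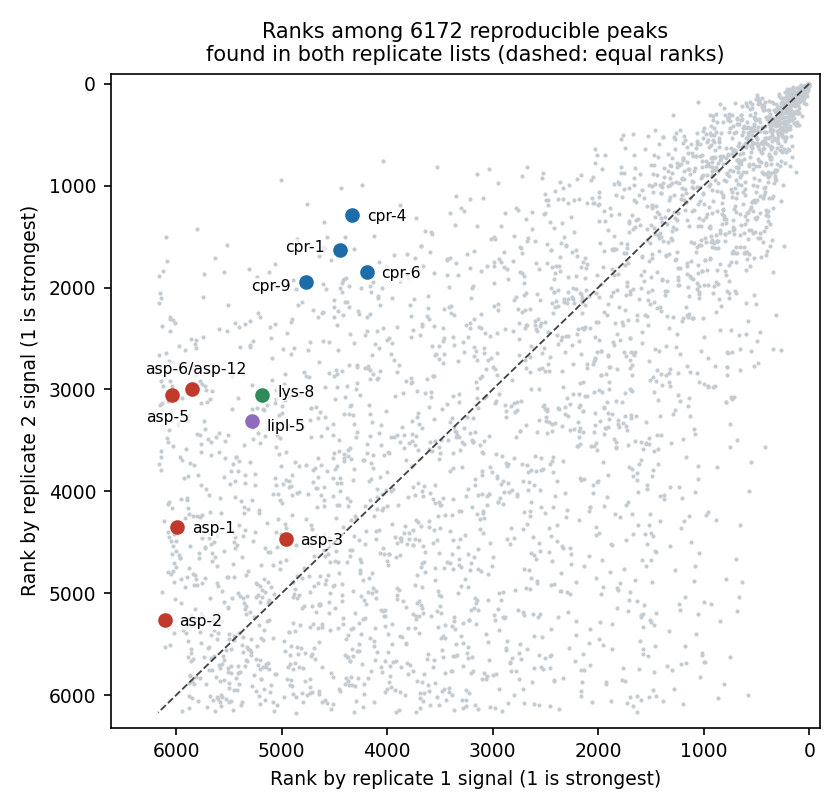
Rank of each promoter summit by replicate 1 signal (horizontal) and by replicate 2 signal (vertical) among the 6172 reproducible peaks found in both replicate lists, with rank 1 the strongest and the dashed line marking equal ranks; grey points are all promoter summits and coloured points the 11 at the 4 families. All 11 lie above the line, with cpr-4, cpr-1, cpr-6 and cpr-9 at ranks 1284 to 1949 in replicate 2.

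Summits at these genes lay close to the start. The median position of the 13 was 85 bp upstream (190 bp upstream to 154 bp downstream), while over all 3959 genes it was 163 bp upstream (quartiles at −272 and −77 bp). The summit was downstream of the nearest start at 3 of the 13 genes (cpr-9, asp-3 and asp-1), or 23.1%, beside 8.51% of all. For the 12 genes with a summit in both replicate lists the median was 78 bp upstream in replicate 1 and 96 bp upstream in replicate 2.

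**Figure D4:**
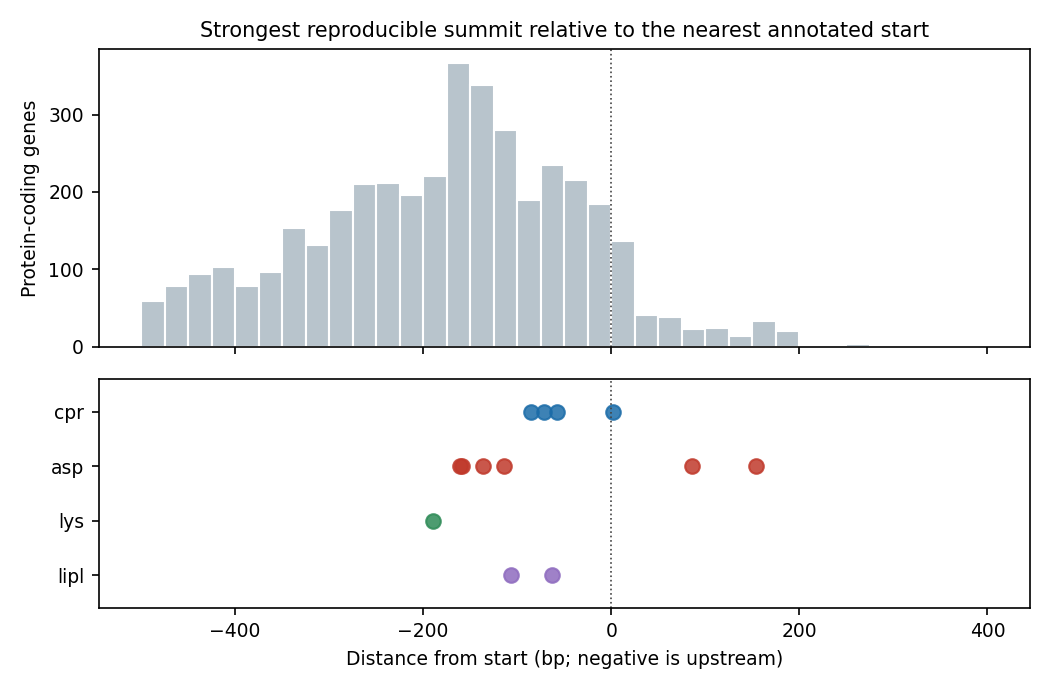
Position of the strongest reproducible promoter summit relative to the nearest annotated start, in bp (negative is upstream), for all 3959 genes with one (upper panel, number of genes per bin) and for the 13 genes by family (lower panel, 1 point per gene). The 13 points run from 190 bp upstream to 154 bp downstream, and 3 of them lie downstream of the start.

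The families are unevenly placed in the genome. Chromosome V held 31 of the 43 genes (72.1%), beside 25% of all protein-coding genes, and 10 of those 31 (32.3%) had a reproducible promoter peak, beside 14.7% of all genes on that chromosome. Such a peak was present at 2 of the 4 genes on chromosome X (17.4% of all its genes) and at the 1 gene on chromosome II (19.1%). It was present at 0 of the 6 on chromosome IV (18.2%). The remaining gene, lys-9 on chromosome I (25.7%), had no reproducible promoter peak. Among all genes the share with a promoter peak was lowest on chromosome V and highest, at 28.5%, on chromosome III, which holds none of the 43.

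Neighbouring members no more than 20 kb apart, on either strand, were taken as a group, and 7 such groups held 19 of the 43 genes. A reproducible promoter peak was present at 4 of these 19 (21.1%) and at 9 of the 24 genes outside them (37.5%), beside 19.8% of all genes, and 3 of the 4 came from 1 group. The group asp-6, asp-12 and asp-5, spanning 6.53 kb, had a peak at each of its 3 genes through 2 summits, and also had reproducible summits in an asp-12 intron (signal 49.2) and just past the end of asp-6 (69.0). In the group asp-17, asp-16, asp-15 and asp-1, spanning 15.03 kb, asp-1 had a reproducible promoter peak and the other 3 genes did not. The 3 reproducible summits nearest to the asp-1 one were stronger, at 96.0, 74.7 and 60.4 beside 49.9, so this locus held its stronger binding outside the promoter window. The other 5 groups (lys-4 to lys-6, lys-1 to lys-3, cpr-5 with cpr-8, asp-7 with asp-8, and asp-18 with asp-19), with 12 genes, had no reproducible promoter peak.

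**Figure D5:**
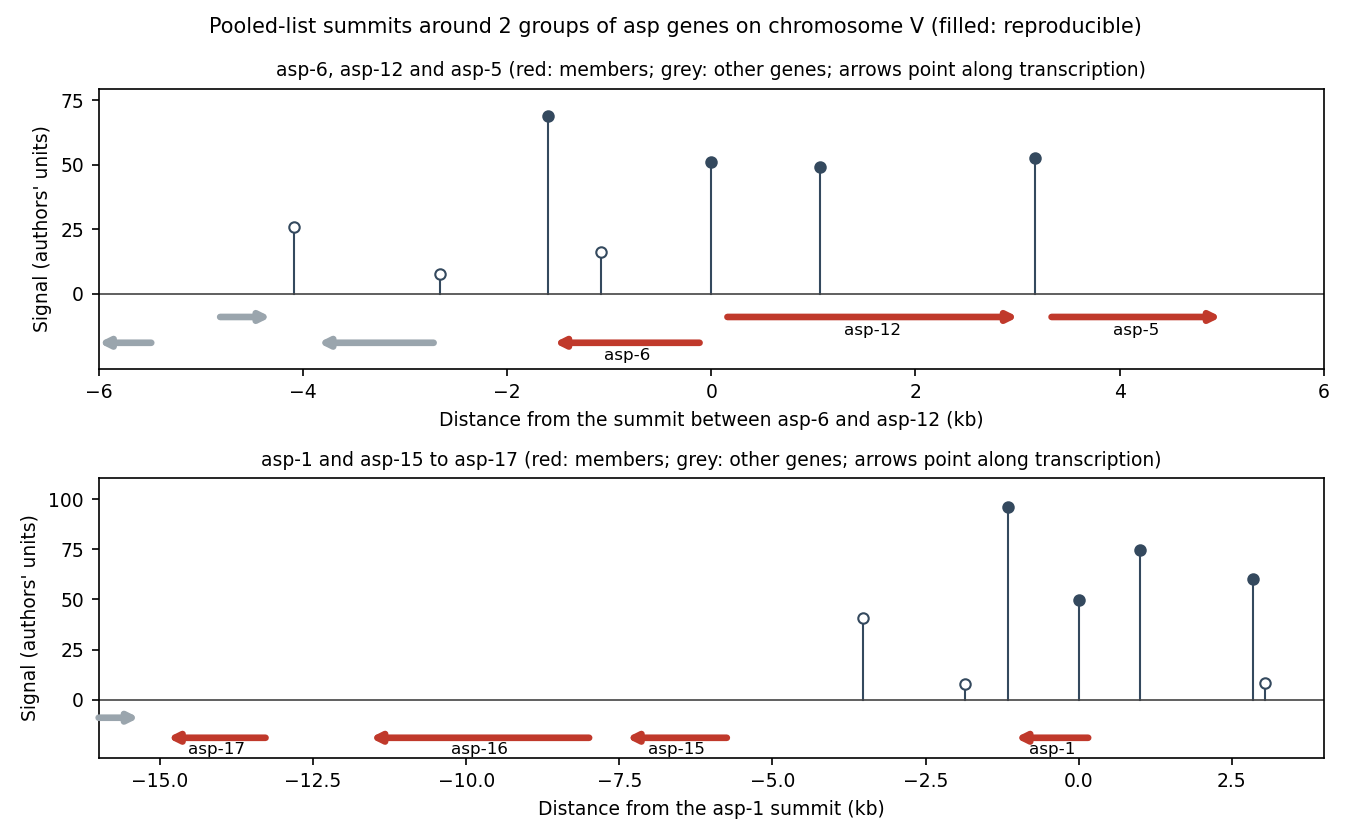
Pooled-list summits (vertical lines, height is signal in the authors' units; filled circles are reproducible) around asp-6, asp-12 and asp-5 (upper) and around asp-1 and asp-15 to asp-17 (lower), with distance in kb from the asp-6/asp-12 summit and from the asp-1 summit; arrows are genes, red for the asp genes. In the lower panel the summits cluster around asp-1 and none is drawn over asp-15, asp-16 or asp-17.

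Because near-identical copies can lose reads in alignment, the uniqueness of each promoter window in the genome was counted over 36-base words. It was 100% in all 13 windows with a reproducible peak. In the 30 without one the median was 100% and the lowest value 79.7%, at asp-17, the 1 window below 90%. The read length is not given in the sources used here, so the 36 bases are a choice made after the data were seen.

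The 30 genes without a reproducible promoter peak had one elsewhere within 2 kb of a start in 5 cases (16.7%): lys-4, lys-5, lipl-1, lipl-4 and lipl-7. The same share, 16.7%, was found over all 16014 genes without one. The median distance to the nearest reproducible summit was 9661 bp for the 30 and 7241 bp for all.

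Other gut and lysosomal genes give the setting. Of 32 other digestive, lysosomal and antimicrobial effector genes, 10 (31.3%, exact 95% interval 16.1% to 50.01%) had a reproducible promoter peak, beside 19.8% of all genes. The interval includes the value for all genes. Of the 32, 3 had a promoter peak among the 3356 strongest peaks, beside 12.7% of all genes. The median signal of the 10 was 78.8. The highest were scav-3 (136), a scavenger receptor gene, cup-5 (134), which encodes a lysosomal channel, and spp-5 (109), which encodes an antimicrobial saposin-like protein. Of 18 genes for regulators of gut, lysosome, starvation or immune genes, 13 (72.2%, 46.5% to 90.3%) had a reproducible promoter peak, beside the 19.8% of all genes. Their median signal was 94.3, and 6 of the 18 had a promoter peak among the 3356 strongest peaks, beside the 12.7% of all genes. With a window of 250 bp on either side of the start the count of 13 fell to 7 of 18 (38.9%), beside 14.2% of all genes, while that of the 4 families stayed at 13 of 43. The highest were daf-15 (1544), the worm Raptor gene of the TOR pathway, zip-2 (354), a bZIP factor of pathogen responses, and nhr-49 (216), a nuclear receptor of fasting metabolism. Of the 3 gut GATA factor genes in the list, named here after their values were seen, elt-2 (94.3) and elt-7 (52.3) had a reproducible promoter peak, and elt-4 had no promoter summit in the pooled list either. Differences between these lists and the 4 families were not tested.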

How the data were processed

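The authors deposited peak lists, described in the labels and in accompanying notes, in the ce10 and ce11 builds for each of 2 replicates, for both pooled, and for a list thresholded by irreproducible discovery rate (IDR); a control alignment was used in calling. The ce11 lists were analysed and the ce10 lists were not used. The deposited signal value per peak is the authors' enrichment score, and the deposited summit offset was added to the peak start. Not given in the sources used here are the aligner, the peak caller and the IDR threshold. Fragments were sized between 150 and 350 bp, per the labels. The replicates are described as biological, with no further detail on the cultures.

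Gene starts came from Ensembl release 115 on WBcel235, whose chromosome names and lengths fit the ce11 lists, and sequence from the RefSeq genome of that assembly. 12 protein-coding genes on a chromosome not in the lists were left out. A summit counted for every gene whose window, 500 bp upstream to 200 bp downstream of any annotated start, held it. Replicate partners overlapped by at least 1 bp. Intervals are exact Clopper-Pearson 95% binomial intervals over genes. No test against other genes was made, since there is 1 group with no comparison sample and the members, the lists of other genes and the words were chosen with earlier results of these data known. All members were to be named, those with a reproducible promoter peak and the 8 others with the highest pooled signal with their values, and from each list of other genes the 3 strongest. Alternatives were other windows, nearest-start assignment, interval overlap, the 3356 strongest peaks, each replicate alone (its 6712 strongest peaks), and overlap with both replicates. The steps were tested on simulated data. Python 3.11.15, scipy 1.17.1, matplotlib 3.10.9 and bedtools 2.31.1 were used.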

Additional observations from a re-analysis of the deposited data

How the results depend on the processing

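Of the 43 genes, between 13 and 14 had a reproducible promoter peak under the other windows, nearest-start assignment and interval overlap (all genes 14.2% to 24.1%). In the 3356 strongest peaks the counts were 0 of 43 (0 for each of the cpr, asp, lys and lipl families), 3 of the other effector genes and 6 of the regulator genes, beside 12.7% of all genes, because every peak at the 43 genes lies below that limit. Leaving out 1 replicate gave 10 to 15 of the 43. Without replicate 2 the share was 23.3%, beside 19.8% of all genes, and asp-1, asp-2 and asp-5 were lost. Without replicate 1 it was 34.9%, beside 17.8%, and asp-2 and lipl-2 were lost while cpr-3, lys-1, lys-7 and lipl-3 were gained. Family counts ran from 3 to 5 for asp and from 1 to 3 for lys. Requiring overlap with the strongest lists of both replicates left 9 of 43 (14.6% of all genes), with 3 asp and 1 lipl gene, and the same counts with 50% reciprocal overlap (11.9% of all genes). Taking peaks in either list, chosen after seeing the data, gave 16 (23.0% of all genes), with 3 lys genes. The lys count was 2 with the 1000 bp upstream window and with nearest-start assignment, through lys-4 in both, and the regulator count was 7 with 250 bp on either side. The median position moved from −96 bp without replicate 1 to −71 bp without replicate 2. GATAA at the summits was 90.9% to 91.7% on single replicates, where the share over all promoter summits was not counted. It was 100% with 150 bp on either side, beside 58.7% of all promoter summits. The single-replicate settings for position and for GATAA, and the 150 bp flank, were also chosen after seeing the data. Promoter words over the 43 genes were counted for 250 bp on either side and for the 1000 bp window. The share ran from 93.0% to 100% for GATAA, beside 74.0% to 95.1% of all genes. For the CHR-type words it ran from 67.4% to 100%, beside 84.1% to 98.8%. It ran from 6.98% to 25.6% for the E2F-type, beside 13.9% to 30.3%, and from 9.30% to 27.9% for CACGTG, beside 9.31% to 18.4%. Causes were not tested beyond the construction of each setting. No paired analysis was possible because there is 1 group.

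Limits: with 1 group, 2 replicates and unknown read depth, a missing peak does not show that binding is absent, and no gene's binding can be set against another condition. Family counts rest on 8 to 17 genes. The asp-2, asp-6 and asp-12, asp-1 and lipl-2 peaks, at ranks 6050 to 6535 of 6712, sit near the end of the reproducible list.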

Other observations

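The promoter summits that were in the pooled list but not the reproducible one carried the same short word. Of the 13 genes of the 4 families with such a summit, 11 (84.6%) had GATAA within 75 bp of it, beside 44.3% of the 3522 such summits over all genes. E2F-type words were at 0 of the 13, beside 6.30%, a CHR-type word at 5 (38.5%), beside 35.5%, and CACGTG at 1 (7.69%), beside 4.49%. These counts were made after the values at the reproducible summits were seen, and the difference from other genes was not tested.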
